A study of Homo sapiens with 4 samples.

Results

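The HOXB cluster is a row of 10 homeobox genes on chromosome 17 (17:46605888-46806112, hg19, 200.2 kb). Its macroH2A1 occupancy was read in IMR90 cells, a line of human lung fibroblasts. The members are HOXB1, HOXB2, HOXB3, HOXB4, HOXB5, HOXB6, HOXB7, HOXB8, HOXB9 and HOXB13, taken by name from the gene annotation; the rule uses no measured value, but the cluster was picked for description with earlier results of these data known. They are 10 of 19517 protein-coding genes that could be measured, and 10 of 39 measured HOX genes. The study had 4 samples of untreated cells: 2 biological replicates of a ChIP with an antibody to macroH2A1, and 2 inputs, all from the same cell line, so no group differs by genotype, treatment or time. The values are genome segmentations, 1 per ChIP replicate, in which each segment carries a log2 ratio of immunoprecipitate to input. Read depth cannot be told from these files, so the only error given is the spread of the 2 replicates. A single group of 2 replicates allows no test between conditions. Markers of the cell type cannot be checked, because these samples hold no expression values.

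HOX genes encode homeodomain transcription factors that give cells their position along the body axis. Their order on the chromosome follows the order of the body regions they pattern, with low numbers used towards the head and high numbers towards the tail. In the developing lung, HOXB5 is known to act in the mesenchyme around the branching airways. MacroH2A1 is a histone H2A variant with an additional macro domain, known from the inactive X chromosome and from broad silent domains. All 10 genes are read in the same direction, from the HOXB13 end towards the HOXB1 end.

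MacroH2A1 was high at both ends of the cluster and low between them, very low over HOXB2 to HOXB5. HOXB1 at one end and HOXB9 and HOXB13 at the other lay above input in both replicates, whereas the canonical transcripts of HOXB2 to HOXB8 all lay below it. The low stretch present in both replicates was 75.7 kb long (17:46616298-46692034), with a mean log2 ratio of -2.55 in replicate 1 and -2.65 in replicate 2. The remainder of the cluster averaged 0.86 and 1.01. The difference between the low stretch and the remainder was -3.41 in replicate 1 and -3.66 in replicate 2, a ratio 10.6-fold and 12.7-fold lower (mean difference -3.54 ± 0.18, SD, n = 2). Because the stretch was delimited by these values, the difference is a description. The signs of the replicates differed over 1095 bases of the cluster, or 0.550% of its bases assayed in both.

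**Figure D1:**
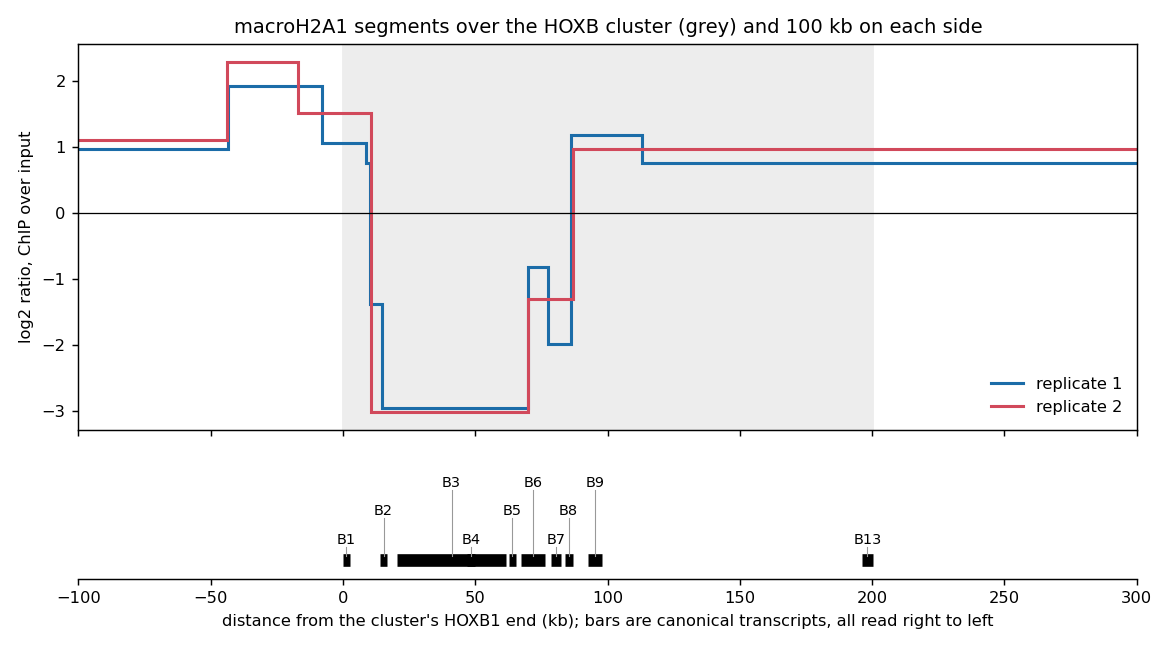
Segment log2 ratio of macroH2A1 ChIP to input (vertical axis) against distance from the HOXB1 end of the cluster in kb, for replicate 1 (blue) and replicate 2 (red); black bars are canonical transcripts. Both replicates drop below 0 between HOXB1 and HOXB2, reach -2.96 and -3.02 over HOXB2 to HOXB5, and rise above 0 at HOXB8.

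HOXB1, the most anterior gene, which specifies hindbrain segment identity, lay at a log2 ratio of 1.05 in replicate 1 and 1.51 in replicate 2 (17:46605888-46608373; mean 1.28 ± 0.33, SD, n = 2). All of it was covered, meaning that 100% of its assayed bases lay in segments with a log2 ratio above 0 and a −log10 p of at least 2 in each replicate. It ranked at the 99.3th percentile of measured genes by mean log2 ratio. Its promoter is shown first because it lies on the high side of the steepest fall in the cluster. The 250 bases before its start site (17:46608374-46608623, minus strand) read 5′ to 3′ as follows, with each CG dinucleotide in capitals.
HOXB1 promoter: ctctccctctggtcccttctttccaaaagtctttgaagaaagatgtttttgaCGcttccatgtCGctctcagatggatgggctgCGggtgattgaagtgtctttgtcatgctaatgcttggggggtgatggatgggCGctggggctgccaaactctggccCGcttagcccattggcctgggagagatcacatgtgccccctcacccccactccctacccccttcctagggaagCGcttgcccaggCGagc
It holds 7 CG dinucleotides, and 57.2% of its bases are G or C. It also holds 1 match, TGATGGAT, to TGATNNAT, the form of a joint PBX and HOX binding site, 125 bases before the start.

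HOXB2, a hindbrain gene that HOXB1 is known to activate, had a log2 ratio of -2.10 in replicate 1 and -3.02 in replicate 2 (17:46618256-46622471; mean -2.56 ± 0.65, SD, n = 2). Both replicates were low, and the gap between them was the widest among the members. In replicate 1 a separate segment at -1.38 ran over the end of the gene away from its start site, up to 17:46620558 in an exon. Only 72.2% of the span was assayed in both replicates.

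HOXB3, HOXB4 and HOXB5 formed the floor of the cluster. HOXB3, a hindbrain and branchial arch gene, had -2.72 and -2.83 over its long annotated span (17:46626232-46682274, 56.0 kb), and its canonical transcript had -2.96 and -3.02. HOXB4, a regulator of blood stem cells that lies inside that span (17:46652869-46655712), had -2.96 and -3.02 (mean -2.99 ± 0.04, SD, n = 2). HOXB5 (17:46668619-46671141), needed for airway branching, had the same 2 values, because HOXB2 to HOXB5 have their start sites in 1 segment of each replicate. The 4 start sites are therefore 1 measurement per replicate and not 4. HOXB2 in replicate 1 and the span of HOXB3 in both replicates also reach into a neighbouring segment. A log2 ratio of -2.96 is 0.128 times the input level and -3.02 is 0.123 times. HOXB4 and HOXB5 stood at the 0.320th percentile of measured genes.

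HOXB6, HOXB7 and HOXB8, of the central and posterior trunk, were low but less so. HOXB6 had -1.44 and -1.82 (17:46673113-46682354; mean -1.63 ± 0.26, SD, n = 2), since a segment border crosses it. By mean log2 ratio over the span, HOXB6 ranked at the 31.1th percentile of measured genes and HOXB8 at the 37.6th. The canonical transcript of HOXB7 (17:46684594-46688379) had -1.99 and -1.31 (mean -1.65 ± 0.48), the 2 replicates differing by more than for any other canonical transcript of these 3 genes. Over its annotated span HOXB7 instead had 0.29 and 0.25, because 1 annotated transcript without a defined coding sequence reaches over HOXB8 and HOXB9 (17:46684594-46710934). HOXB8, known for holding back myeloid differentiation, had -1.48 and -1.31 (17:46688739-46692654; mean -1.40 ± 0.12). Its start site lay in a segment of 1.18 in replicate 1 and of -1.31 in replicate 2, so the replicates disagree in sign there and 15.8% of the gene was covered in replicate 1 alone.

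The HOXB8 promoter is shown because it lies whole between the 2 replicates' borders at the rise in macroH2A1. The border lies 620 bases into the gene in replicate 1 and 283 bases before its start in replicate 2. Its 250 bases (17:46692655-46692904, minus strand) hold 8 CG dinucleotides, with runs of C and T near the start site.
HOXB8 promoter: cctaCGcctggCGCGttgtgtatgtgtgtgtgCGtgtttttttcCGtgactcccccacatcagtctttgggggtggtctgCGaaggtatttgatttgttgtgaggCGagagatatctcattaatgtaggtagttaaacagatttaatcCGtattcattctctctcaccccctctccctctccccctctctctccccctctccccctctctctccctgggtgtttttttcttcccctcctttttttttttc
HOXB9, which patterns the ribs, lay beyond that border at 1.18 and 0.97 (17:46698518-46703720; mean 1.07 ± 0.15, SD, n = 2).
HOXB13, a posterior gene used in prostate and distal gut, stands 98.4 kb further on (17:46802125-46806112) and had 0.75 and 0.97 (mean 0.86 ± 0.15). HOXB9 and HOXB13 were both covered to 100% and ranked at the 98.0th and 94.7th percentile of measured genes. In replicate 2 they shared 1 segment and hence 1 value.

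**Figure D2:**
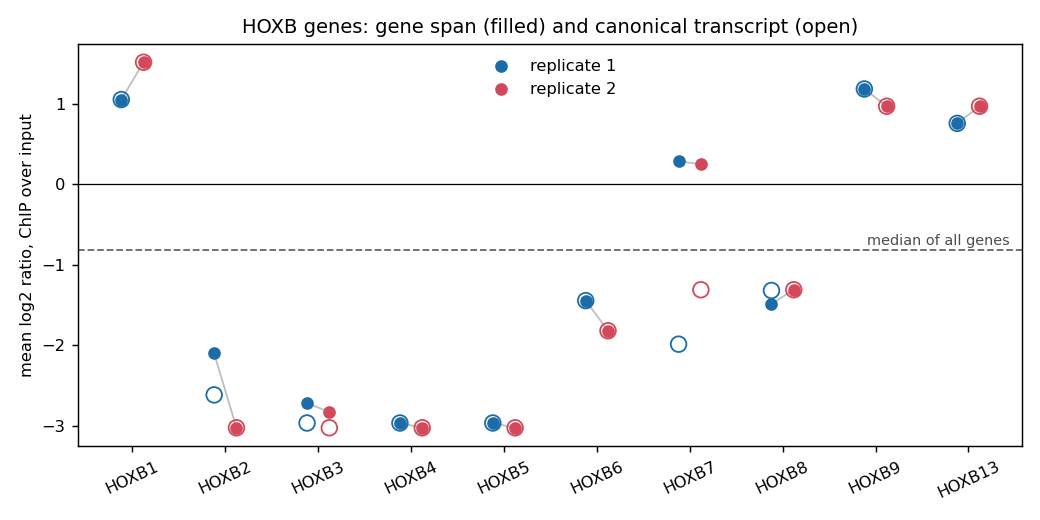
Mean log2 ratio of each HOXB gene (vertical axis) in replicate 1 (blue) and replicate 2 (red), over the annotated span (filled) and the canonical transcript (open ring); the dashed line is the median of all measured genes, -0.81. HOXB1, HOXB9 and HOXB13 lie above 0, HOXB2 to HOXB5 between -2.10 and -3.02, and HOXB7 changes sign between its span and its canonical transcript.

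By annotated span 4 of the 10 members had 50% or more of their bases covered in both replicates (HOXB1, HOXB7, HOXB9 and HOXB13), where 19.2% of all measured genes were. By canonical transcript there were 3, without HOXB7, where 18.5% of genes were covered. The other 6 members had no base covered in both replicates, as did 69.5% of all genes. By span 6 members were below 0 in both replicates, against 69.7% of all genes, and 4 were above 0 in both, against 22.8%. The 4 members below -2 in both replicates, HOXB2 to HOXB5, compare with 12.2% of all genes by span and 13.4% by canonical transcript. Below -2.5 in both there were 3 by span (background 1.80%) and 4 by canonical transcript (background 1.98%). The median member had a log2 ratio of -1.51, and the median of all measured genes was -0.81. Neighbouring members share segments, so these counts are not of independent genes.

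Both replicates placed a fall on the HOXB1 side and a rise on the HOXB8 side of the low stretch. On the HOXB1 side the log2 ratio fell from 0.76 to -1.38 at 17:46616105 in replicate 1 and from 1.51 to -3.02 at 17:46616297 in replicate 2, borders 192 bases apart. Steps as large as these falls of 2.14 and 4.54 made up 14% of all borders in replicate 1 and 0.184% in replicate 2. On the HOXB8 side it rose from -1.99 to 1.18 at 17:46692034 in replicate 1 and from -1.31 to 0.97 at 17:46692937 in replicate 2, borders 903 bases apart. Steps as large as these rises of 3.17 and 2.28 made up 2.17% and 19.4% of borders. Another border inside the low stretch, where the floor ends within introns of HOXB3, HOXB6 and the antisense RNA HOXB-AS3, stood at 17:46675802 and 17:46675855, 53 bases apart. Across the genome the median distance from a border of replicate 2 to the nearest one of replicate 1 was 2513 bases, and 10.2% of replicate 2 borders were as near as 192 bases, 31.4% as near as 903 bases and 2.93% as near as 53 bases. The distance on the HOXB8 side was thus a common one. Replicate 1 has more borders to be near, 46892 against 25487, and inside the cluster it placed 7 borders where replicate 2 placed 3.

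The stretch that holds both replicates' borders at the end of the floor (17:46675783-46675875) is printed on the plus strand, since these borders were the closest pair, with the bases between them in capitals. It lies in the introns named above and holds 4 CG dinucleotides in 93 bases.
HOXB6 intron border: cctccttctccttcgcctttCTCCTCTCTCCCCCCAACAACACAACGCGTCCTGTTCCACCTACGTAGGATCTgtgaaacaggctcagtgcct
It holds no TGATNNAT or TATAAA on either strand.

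The RNA genes within the cluster followed the stretch in which they lie. The antisense RNAs HOXB-AS1 and HOXB-AS2 had -2.96 and -3.02, and HOXB-AS3 had -2.67 and -2.78. HOXB-AS4, beyond HOXB9, had 1.18 and 0.97. MIR10A (17:46657200-46657309) lay on the floor at -2.96 and -3.02, and MIR196A1 (17:46709852-46709921) lay on the high side at 1.18 and 0.97. Both are microRNAs that are known to act on HOX transcripts. Their RefSeq mature sequences are shown to tell the 2 apart, with the seed (bases 2 to 8) in capitals.
hsa-miR-10a-5p: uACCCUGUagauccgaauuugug
hsa-miR-196a-5p: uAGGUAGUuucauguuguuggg
The seeds differ, so the 2 microRNAs belong to different seed families. MIR3185, PRAC1 and PRAC2, next to HOXB13, and the long noncoding RNA LINC02086, between HOXB9 and HOXB13, all had 0.75 and 0.97, the value of the segment they share with HOXB13. LINC03057 had 0.96 in replicate 1 and 0.97 in replicate 2.

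The surroundings of the cluster were high on both sides. The 100 kb on the HOXB1 side averaged 1.31 and 1.49 (mean 1.40 ± 0.13, SD, n = 2), and the 100 kb on the HOXB13 side 0.75 and 0.97 (0.86 ± 0.15). Both were covered to 100%, while chromosome 17 as a whole was covered to 32.7% at a mean of -0.43 ± 0.07. The highest segment of the region lay not on a HOXB gene but on the stretch without a named gene between HOXB1 and SKAP1, an adaptor gene of T cells. It had a log2 ratio of 1.92 over 35.6 kb in replicate 1 (17:46562547-46598125) and 2.29 over 26.9 kb in replicate 2 (17:46562088-46589035). Only 0.291% and 0.0838% of assayed bases lay in segments as high. SKAP1 itself, of which the end nearest the cluster lies in the window, had 0.99 and 0.94, and TTLL6, a tubulin-modifying enzyme on the HOXB13 side, had 0.75 and 0.97.

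The floor of the cluster was among the lowest long segments of the genome. In replicate 1 it was 55.2 kb long, and of 13044 segments of at least that length 12 were as low, itself included. In replicate 2 it was 59.6 kb long, and 2 of 11854 were as low, itself included. Segments at or below these values held 0.215% and 0.0962% of assayed bases. The mean of the whole cluster was -0.40 ± 0.04 (SD, n = 2), beside -0.43 for chromosome 17. Its covered share of 61.2% rested on the 98.4 kb between HOXB9 and HOXB13, all of which was covered, and from HOXB1 to HOXB9 the share was 20.0% at a mean log2 ratio of -1.76 ± 0.04.

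**Figure D3:**
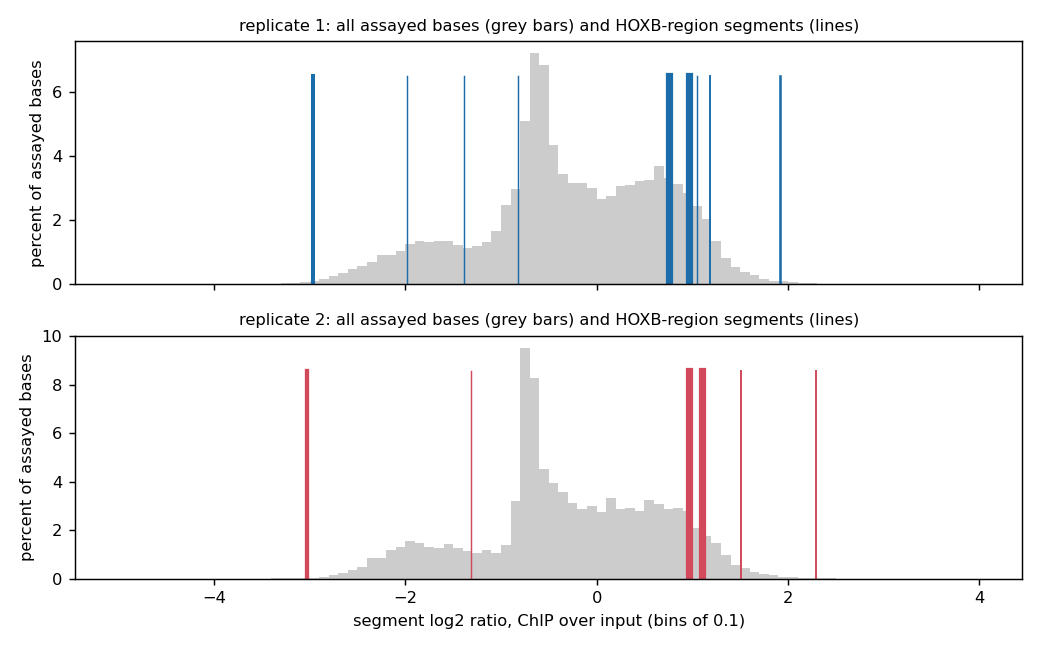
Share of assayed bases (vertical axis, percent) by segment log2 ratio (horizontal axis, bins of 0.1) in each replicate; coloured lines mark the segments of the HOXB cluster and its 100-kb flanks, thicker for longer segments, and their height has no meaning. The floor at -2.96 and -3.02 and the highest flanking segment at 1.92 and 2.29 stand at the 2 tails.

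The low segments were richer in G and C than most of the high ones. In replicate 2 the segments below 0 had 52.1% and 53.4% G and C, with 29.7 and 36.6 CG dinucleotides per kb. Those above 0 had 39.8% to 48.0%, with 7.88 to 18.1 per kb. In replicate 1 the segments below 0 had 47.9% to 55.4%, and those above 0 had 42.0% to 49.2% with 1 exception at 52.4%. The part of base composition in the log2 ratio was not tested. In replicate 1 the floor had 52.5% G and C and 30.0 CG dinucleotides per kb at a log2 ratio of -2.96, and the exception, the segment with the HOXB8 and HOXB9 start sites, had 52.4% and 30.3 per kb at 1.18. The segment that holds HOXB13 in replicate 1 had 46.6% and 16.6 per kb, near the 45.5% and 14.9 per kb of chromosome 17. HOXB promoters held 7 to 18 CG dinucleotides in 250 bases (median 10), where the median of 19818 promoters was 18. TGATNNAT occurred on either strand in 3 of the 10 HOXB promoters, that of HOXB1 included, and in 4.17% of all promoters. TATAAA occurred in that of HOXB7 alone among the 10, and in 9.28% of all. These are matches of letters and not measured binding sites.

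By gene, the other 3 HOX clusters differed from HOXB in shape. In HOXA (11 genes) 7 members were below 0 in both replicates and none below -2 in both. By gene span the sign along HOXA changed once, between HOXA7 and HOXA9. By segment there was also a fall at the low-numbered end. In replicate 1 this fall ran from 0.07 to -3.36 within the first 3 kb of the cluster. In replicate 2 it went from 0.99 to -1.49 just outside the cluster. HOXA2 had -3.36 and -1.49, and HOXA9 had 0.56 and 1.15 over its span. Over the canonical transcript HOXA9 had -0.31 in replicate 1 and 0.93 in replicate 2, so the replicates disagree in sign there. In HOXC and HOXD (9 genes each) no member was below 0 in both replicates. HOXC8 and HOXC9 had 0.40 and 0.83, HOXD8 and HOXD9 had 0.46 and 1.09, and HOXD1 had -0.15 and 0.01. HOXB was thus the one cluster of the 4 with members below -2 in both replicates, 4 of 10, and no test of that count was made.

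**Figure D4:**
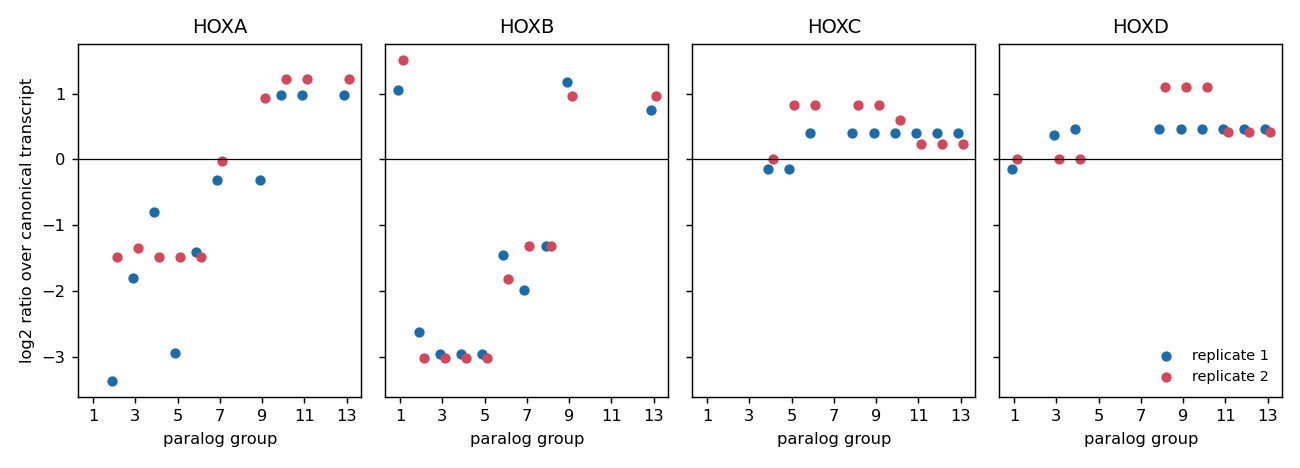
Log2 ratio over the canonical transcript (vertical axis) by paralog group (horizontal axis) for genes of the 4 HOX clusters, HOXA from group 2 on, in replicate 1 (blue) and replicate 2 (red). HOXB falls and rises again, and HOXC and HOXD stay between -0.15 and 1.09. Among the canonical transcripts shown, HOXA changes sign once in each replicate, but HOXA9 lies at -0.31 in replicate 1 and 0.93 in replicate 2.

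Averaged over the cluster, HOXB differed from HOXC by -0.79 ± 0.09 and from HOXD by -0.81 ± 0.07 on the log2 scale (SD of the paired difference, n = 2), lower in both replicates. From HOXA it differed by 0.43 in replicate 1 and -0.0056 in replicate 2. Both clusters of a pair are read in the same 2 libraries, so their values are paired and not independent. A two-sided exact permutation test that takes the 4 values as separate can give no p below 0.333, and one that permutes within replicates none below 0.5, so none of the 3 pairs could pass. Taken as separate, the exact permutation p was 0.333 for HOXC and HOXD and 1 for HOXA, or 0.5, 0.5 and 1 after Benjamini-Hochberg adjustment over the 3 pairs, and within replicates it was 0.5, 0.5 and 1 unadjusted. The covered share was 61.2% in HOXB, 30.0% in HOXA, 80.3% in HOXC and 54.8% in HOXD. The order of HOXB against HOXC in covered share reversed under both stricter cut-offs, where HOXB exceeded HOXC by 22.1 points (−log10 p of at least 5) and 61.2 points (log2 ratio above 0.5). The order against HOXD turned on the replicate, at -18.2 points in replicate 1 and 7.31 in replicate 2.

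Genes that work with or control HOX genes gave no common picture. Of 23 listed cofactors and regulators, all measured, 7 were covered (30.4%, background 19.2%) and 15 were below 0 in both replicates (65.2%, background 69.7%). Their median log2 ratio was -0.84, beside -0.81 for all genes. By mean the 3 highest were CDX genes, upstream activators of posterior HOX genes. CDX1 had 1.62 and 1.89, CDX4 had 1.07 and 0.84, and CDX2 had 0.28 and 0.80. CDX4 lies on chromosome X, and the part of its chromosome in its value was not tested. The mean of CDX2, 0.54 ± 0.37 (SD, n = 2), did not differ beyond that spread from those of CYP26B1, a retinoic acid-degrading enzyme, at 0.54 ± 0.16 and ALDH1A2, a retinoic acid-making enzyme, at 0.53 ± 0.02. The lowest were KMT2A, a histone methyltransferase that maintains HOX expression, at -2.28 and -2.13, the HOX cofactor MEIS1 at a mean of -2.16 ± 0.22, and MEN1, a partner of KMT2A, at -2.02 and -2.11. No listed gene was below -2.5 in both replicates, a level that HOXB3, HOXB4 and HOXB5 passed by span.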

How the data were processed

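MacroH2A1 ChIP-seq of IMR90 cells was deposited as 1 gapped segmentation per ChIP replicate, not pooled; the inputs entered only as the authors' denominator. Chromatin was crosslinked with formaldehyde and sonicated, per the labels' protocols. The submitters' processing notes name CASAVA 1.7 and hg19; how reads were aligned, filtered, segmented and scaled is not given in the sources used here. The deposited log2 ratio is 1 value per segment, so features within a segment are not seen. No source states its base: base 2 was taken because the ratios then averaged 1.01 and 0.995 over assayed bases (natural base, 1.14 and 1.12). The deposited −log10 p-value was used only to call enriched segments (log2 ratio above 0, −log10 p at least 2). The files give no read counts, so depth is unknown.

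Coordinates (counted from 1) were joined to GRCh37 and GENCODE release 44 mapped to it; no segment ran past a chromosome end. A border is the last base of the left segment. A gene's value is the mean per assayed base over its annotated span; the canonical transcript was added after seeing the data. Genes with at least 50% of their span assayed in both replicates were measured. RefSeq (GRCh38.p14) gave the microRNA sequences, whose 3 hairpins matched GRCh37 exactly. Promoters were the 250 bases before the canonical start, from GRCh37. Members and lists were chosen with earlier results of these data known. All members and all other named genes within 100 kb were described; of the cofactors, the 3 highest and 3 lowest; of other HOX genes, those of the paralog groups at the sign changes. Clusters were compared by exact permutation test. Interval sums (Python 3.11.15, numpy 2.4.6, pandas 2.3.3, scipy 1.17.1) were checked on simulated segmentations. Some sequences and a gene outside HOXB are not reported here.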

Additional observations from a re-analysis of the deposited data

How the results depend on the processing

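The 4 members called covered were the same 4 under either cut-off, in each replicate alone, in either replicate and with gaps included. With a share of 80%, exons only, the 5-kb start window or the canonical transcript there were 3, without HOXB7, whose log2 ratio changed from 0.27 to -1.65 by canonical transcript. Of the alternatives to the cluster-level values, 58 stayed within the spread of the replicates or within 1.5 times a count, 20 moved and 8 changed sign; all are given here or lie in the ranges without 1 replicate. Limited to HOXB1 to HOXB9, the covered share was 20.0% in place of 61.2% and the mean log2 ratio -1.76 in place of -0.40; the median of members was -1.51. The share was 62.2% for either replicate. Without 1 replicate it was 61.3% to 62.1%, and the borders inside the cluster numbered 3 to 7 per replicate (mean 5). On the HOXB1 side the mean log2 ratio was 1.77 over 50 kb and 1.26 over 250 kb. On the HOXB13 side 250 kb gave -0.32 and a share of 53.6%, as the high stretch ends within it. HOXB minus HOXA in share was 27.7 points for either replicate, 29.6 with gaps, 0 by median of members and 28.7 to 30.0 without 1 replicate, against 31.2; in log2 ratio it was -0.84 by median of members and -0.0056 to 0.43 without 1 replicate, against 0.21. HOXB minus HOXC in share was 22.1 points at −log10 p of at least 5, 61.2 at a log2 ratio above 0.5, -25.5 for either replicate, -100 by median and -25.6 to -19.1 without 1 replicate, against -19.2; in log2 ratio -2.01 by median. HOXB minus HOXD in share was 61.2 points at a log2 ratio above 0.5, -17.3 for either replicate, -100 by median and -18.2 to 7.31 without 1 replicate, against 6.40; in log2 ratio -1.95 by median. The causes of these shifts between cut-offs were not tested. With the replicate block, added after seeing the data, the paired log2 differences were the same 0.21, -0.79 and -0.81 for HOXA, HOXC and HOXD, and no call changed. ChIP and input could not be paired, since the inputs have no values of their own here.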

Other observations

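The high stretches on both sides of the HOXB low stretch had ends of their own in both replicates. The genes at those ends were looked up after the values were seen. Across the genome the median distance from a replicate 2 border to the nearest of replicate 1 was 2513 bases, with a lower quartile of 618 bases. On the HOXB1 side the stretch above 0 ran for 408 kb in replicate 1 and 410 kb in replicate 2, from 17:46208131 and 17:46206658, and took in the whole of SKAP1. Beyond it the log2 ratio was -1.63 and -1.57.

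On the HOXB13 side the stretch above 0 ran for 216 kb and 214 kb and ended at 17:46907985 and 17:46907126. These ends lay 395 and 1254 bases before the start of CALCOCO2, an autophagy receptor gene read away from the cluster (17:46908380-46943884, plus strand), which itself had -1.58 and -1.89 (mean -1.73 ± 0.22, SD, n = 2) and no covered base. HOXB13, PRAC1, PRAC2 and TTLL6 thus lay in 1 high stretch with HOXB9.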
